A study of Homo sapiens with 12 samples.

Results

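MV4-11 is a human acute myeloid leukemia (AML) cell line with monocytic features that carries an internal tandem duplication of FLT3 (FLT3-ITD) and a rearrangement that fuses KMT2A to AFF1. The vehicle state of this line was described from 3 RNA-seq libraries of cells kept for 24 h in DMSO, with 0 nM mitoxantrone and 0 nM gilteritinib. These are all the DMSO libraries of a series of 12, in which the other libraries were drug-treated cells of the same line and are not compared here. The libraries were chosen by their DMSO label alone, with no expression value used. The labels give the genotype as wild-type, and neither the duplication nor the fusion can be read from a value per gene. All libraries come from this 1 cell line, and the sources used here do not say whether the 3 libraries came from separate cultures, so the spread between them may be technical.

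In the myeloid lineage, a small set of transcription factors fixes cell identity. SPI1 (PU.1) and the CEBP factors open the myeloid program, and IRF8 directs it to monocytes and dendritic cells. KMT2A fusion proteins keep the later HOXA genes and their partner MEIS1 active, which holds the cells in a progenitor-like, self-renewing state. FLT3 is a receptor tyrosine kinase of early blood progenitors, and its duplicated form signals without ligand through STAT5, the RAS-ERK cascade and PI3K-AKT.

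The values are FPKM, the fragments of a gene scaled by its length and by the total fragments of the library, so levels can be compared between genes as a level per length. From the steps between low values, the depth was found to be 36041664, 36159082 and 32973015 fragments in replicates 1, 2 and 3. At these depths an FPKM of 1 on a gene of 2000 nt stands for 65.9 to 72.3 fragments, with a counting error of 11.8% to 12.3%. A gene is called on where every one of the 3 libraries reaches 1 FPKM, and off where every one is under 0.1. Of 43876 gene identifiers, 15813 were on. Of 17586 protein-coding genes, 9991 (56.8%) were on, 7222 reached 5 in every library, 360 reached 100, 4119 (23.4%) were off, and 1234 were listed at 0 in all 3 libraries.

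The 5 genes that mark this line in its label were all on in these libraries. LYZ (chr12:69348341-69354234 in GENCODE 29, GRCh38, plus strand), the lysozyme of monocytes and granulocytes, had 686.5, 506 and 490.4 FPKM in replicates 1, 2 and 3 and ranked 53 among protein-coding genes. FLT3 (chr13:28003274-28100592, minus strand) had 138, 165 and 169 FPKM, rank 221. MEIS1 (chr2:66433452-66573869, plus strand), the homeodomain partner of HOXA9, had 35.8, 38.6 and 38.8 FPKM. Replicates 2 and 3 lay close together for all 3 genes, while replicate 1 was higher for LYZ and lower for FLT3 and MEIS1. CD33 (chr19:51225064-51243860, plus strand), a surface lectin of myeloid cells, had 20.0, 23.9 and 23.5 FPKM. HOXA9 (chr7:27162435-27175180, minus strand) had 15.7, 23.0 and 22.2 FPKM. For these 2 genes replicate 1 was again the lowest of the libraries, and HOXA9 shares 27.0% of its exonic bases with other annotated genes, so part of its value may be reads of a neighbour.

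The most abundant protein-coding RNAs were those of the mitochondrial genome, the translation machinery, the cytoskeleton, histones and a secretory granule proteoglycan. MT-CO1, a mitochondrially encoded subunit of cytochrome c oxidase, led with 4069, 4974 and 5315 FPKM. SRGN followed with 2877, 2628 and 2593 FPKM, and it encodes serglycin, the core protein that packs granule contents of blood cells. EEF1A1, the translation elongation factor that brings transfer RNA to the ribosome, had 2207, 2202 and 2152 FPKM. These values of SRGN and EEF1A1 differed little between libraries. ACTB, the cytoplasmic beta-actin, had 1476, 2242 and 2219 FPKM, and ACTG1, its gamma counterpart, had 917, 1466 and 1431 FPKM. For both actins replicate 1 was well below the other libraries. FTL, the light chain of the iron store ferritin, had 1556, 1387 and 1441 FPKM. Others of the first 20 were EEF2, RPL13A, RPS2, PABPC1, RACK1 and RPL3 of the translation machinery, the histone genes H3C2, H2AC14, H4C3 and H1-5, and the mitochondrial MT-CO3, MT-ND4 and MT-CYB.

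Protein-coding genes held 74.6%, 80.1% and 81.0% of the summed FPKM of replicates 1, 2 and 3. The 79 cytosolic ribosomal protein genes held 8.34% ± 0.686 (SD, n = 3), the 63 replication-dependent histone genes 4.79% ± 0.102 and the 13 mitochondrially encoded protein genes 3.43% ± 0.517. The histone share varied least of the 3 between libraries. Between 87 and 100 protein-coding genes were enough to reach 25% of the coding total of a library, and 620 to 705 to reach 50%. Of the ribosomal protein genes, 75 of 79 were on, against 56.8% of all protein-coding genes. Their median level was 293 FPKM, and 64 had a mean of at least 100. Histone genes are transcribed in S phase and their messages end in a stem loop without a poly(A) tail. Of the 63, 57 were on, against the same 56.8%, with a median level of 192 FPKM, in the H1, H2A, H2B, H3 and H4 families. The summed level of the 13 H3 genes was 4702, 4136 and 4151 FPKM, and that of the 15 H4 genes 3860, 4072 and 3643 FPKM. The histone list was written after these values were seen, and near-identical histone copies can share reads.

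The start sites are shown because these 2 classes of abundant genes differ in the letters there. Promoters on the chromosome of PABPC1 were left out before any ranking or counting. Of the translation genes with 1 start among those kept from the RefSeq promoter table (GRCh38.p14), the 6 most abundant are shown. Each window runs from 15 bases before the annotated start, with capitals marking the unbroken run of C and T that begins at it. Such a run at the 5′ end is the terminal oligopyrimidine tract of translation messages.
EEF1A1: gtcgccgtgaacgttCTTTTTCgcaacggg
EEF2: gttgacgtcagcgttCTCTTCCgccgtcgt
RPL13A: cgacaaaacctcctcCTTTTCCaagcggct
RPL3: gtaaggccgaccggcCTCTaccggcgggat
RPL29: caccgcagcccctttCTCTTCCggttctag
RPS3A: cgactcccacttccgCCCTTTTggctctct
The windows lie at chr6:73521018-73521047 (minus strand), chr19:3985449-3985478 (minus), chr19:49487593-49487622 (plus), chr22:39319609-39319638 (minus), chr3:51995881-51995910 (minus) and chr4:151099613-151099642 (plus). The run is 7 bases long in 5 of these genes and 4 in RPL3. A C at the start followed by 4 bases of C or T was sought on the gene's strand only. It was present at 47 of 78 starts of ribosomal protein genes (60.3%) and at 4.07% of all 35116 promoters kept. Only 63 of the 79 genes matched a kept promoter, which is under 80%, so this share does not stand for the whole list. The promoters left out may be part of the shortfall.

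For histones, windows of 30 bases around the TATA box are shown, with TATAAA in capitals, for the 3 of the 4 most abundant genes with 1 start that have those letters upstream of it.
H3C2: gtggtctgactcTATAAAagaagagtagct
H2AC14: cccagtagaggcTATAAAatgtacgttttt
H4C4: ccgtcatgctatTATAAAagtgctgcgtgg
They lie on the minus strand at chr6:26032114-26032143, chr6:27814791-27814820 and chr6:26189124-26189153, and the box begins 32, 31 and 29 bases before the start. On either strand of the 300-base promoter, TATAAA was present in 38 of 55 promoters of the histone genes that were on (69.1%). The share was 11.5% of all promoters kept. CCAAT was present in 46 of them (83.6%), against 34.6% of all, and the pyrimidine start in 0 of 55. Of these histone genes 52 of 57 matched the table. A match gives letters in a window and does not show a bound factor.

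Among genes that are not annotated as protein-coding, RN7SL1, the RNA of the signal recognition particle, stood far above all others at 35334, 28397 and 21722 FPKM. This was 9.34%, 7.73% and 5.98% of the summed FPKM, but 0.749%, 0.601% and 0.460% of the fragments. RN7SL1 is 299 nt long in the annotation. It shares 100% of its exonic bases with other annotated genes, so part of its value may be reads of a neighbour. Its order among libraries was replicate 1 over 2 over 3, with a coefficient of variation of 23.9%, close to the 22.03% of ACTB and the 24.2% of ACTG1. MALAT1, a nuclear long non-coding RNA, had 610, 501 and 578 FPKM. Of 30 named long non-coding RNAs, 19 were on, against 22.1% of all identifiers outside the protein-coding class. After MALAT1 the highest were GAS5 (80.0, 79.1 and 73.3 FPKM), NORAD (57.1, 63.2 and 61.0) and SNHG1 (52.3, 46.0 and 45.4). From the HOX clusters, HOXA11-AS (2.78, 4.64 and 3.59 FPKM) and HOTAIRM1 (2.03, 2.49 and 2.87 FPKM) were on, while HOXA-AS2, HOXA-AS3 and HOXB-AS3 were off. H19 and MEG3, imprinted long non-coding RNAs, were listed at 0 in all 3 libraries.

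The least repeatable abundant genes were short structured RNAs. MIR3648-1, which lies in a ribosomal DNA spacer, had 2600, 158 and 403 FPKM, and RNA5-8SN2, a 5.8S ribosomal RNA gene, had 429, 35.6 and 147 FPKM. Both were highest in replicate 1 and lowest in replicate 2. MIR3687-1, beside MIR3648-1, was also lowest in replicate 2 but highest in replicate 3 (447, 66.6 and 623 FPKM). RNU4-1, a spliceosomal RNA, had 214, 38.2 and 38.1 FPKM. SNORD3A, the U3 RNA of ribosomal RNA processing, had 396, 151 and 124 FPKM. SNORA73B, another small nucleolar RNA, had 486, 189 and 189 FPKM. In these 3 genes replicate 1 stood alone above the other libraries. Such genes are shorter than a usual library fragment, and many have near-identical copies, so FPKM is a rough measure for them.

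The myeloid transcription factors were mostly expressed, with 20 of 23 on, against 56.8% of all protein-coding genes. IRF8, the monocyte and dendritic cell regulator, led with 305, 224 and 227 FPKM. MYB, a progenitor factor that KMT2A-rearranged cells depend on, had 202, 190 and 197 FPKM. ZEB2, a repressor active in monocytes, had 169.6, 169.7 and 164.7 FPKM. MYB and ZEB2 were close in all libraries, while IRF8 was highest in replicate 1. SPI1 had 85.6, 77.0 and 108 FPKM, RUNX1 76.0, 98.9 and 101.5, CEBPA 61.1, 59.3 and 65.9, and GFI1 68.4, 80.8 and 87.1. MYC reached 84.95, 120 and 122 FPKM. CEBPE and KLF4, which belong to later granulocyte and monocyte stages, stayed under 1 FPKM in every library.

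The HOXA cluster was expressed at its posterior end. HOXA10 had 22.7, 25.9 and 30.01 FPKM, HOXA9 the values given above, and HOXA11 5.72, 7.37 and 6.72 FPKM. HOXA9, HOXA10 and HOXA11 were the 3 of 11 members on, against 56.8% of all protein-coding genes. HOXA13 reached at most 0.855 FPKM, and HOXA2 to HOXA7 lay between 0 and 0.145 FPKM. Of these, HOXA7 shares 62.5% of its exonic bases with other genes, HOXA4 47.3% and HOXA6 40.1%, while HOXA2 and HOXA5 share 0%. In the HOXB cluster HOXB4 (5.22, 4.01 and 4.82 FPKM), HOXB3 and HOXB7 were on. In the HOXC cluster 0 of 8 measured genes were on, and in the HOXD cluster 0 of 3, with no value above 0.0232 FPKM. Among the cofactors of HOX proteins, PBX3 was highest at 57.3, 49.3 and 53.7 FPKM, above MEIS1.

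**Figure D1:**
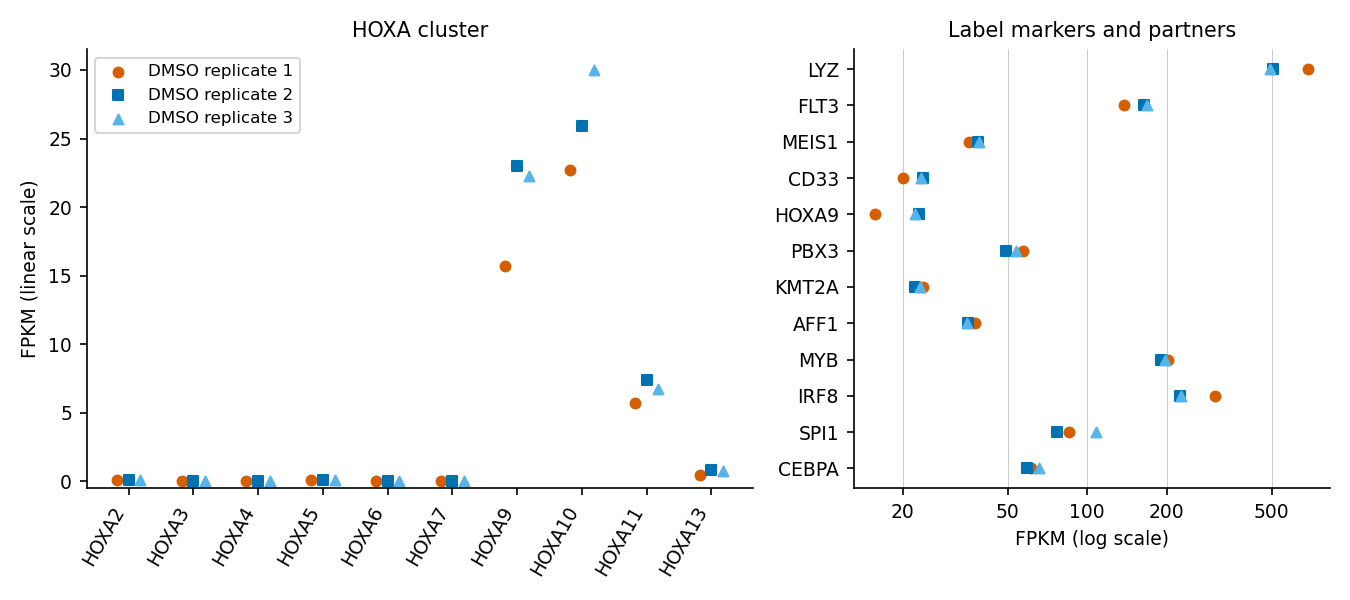
Left, FPKM (linear axis) of 10 of the 11 HOXA genes in the 3 DMSO libraries, where HOXA9, HOXA10 and HOXA11 stand above 5 and the other genes drawn lie at or under 0.855. Right, FPKM (log axis) of the 5 label markers, of KMT2A, AFF1 and PBX3, and of 4 myeloid transcription factors in the same libraries.

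The fusion partners and the proteins that KMT2A complexes use were expressed at middle levels. Of these 18 of 19 were on, against 56.8% of all protein-coding genes. KMT2A, the histone methyltransferase, had 24.0, 22.3 and 23.2 FPKM, and AFF1, its fusion partner in this line, 37.5, 35.2 and 34.9 FPKM. These values add normal and fused transcripts, which FPKM per gene cannot separate. MEN1, the menin adaptor, had 10.97, 12.03 and 11.53 FPKM, and DOT1L, the H3K79 methyltransferase, 21.4, 23.9 and 27.2 FPKM. MLLT3, a partner in other KMT2A fusions, was the member not on, at 0.165, 0.169 and 0.203 FPKM.

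Of the lineage lists, the myeloid ones held the most genes on. Over 10 blood lists 32 of 143 genes in the table were on and 70 were off, and over 6 lists of other tissues 3 of 54 were on and 35 off. Among all protein-coding genes 56.8% were on and 23.4% off. In the monocyte and macrophage list 9 of 23 were on. MS4A6A, a membrane protein of monocytes and macrophages, led with 244, 201 and 199 FPKM, followed by FCGR1A, the high-affinity IgG receptor, with 36.4, 57.3 and 53.6 FPKM. CSF1R, the receptor that drives macrophage growth, had 11.4, 22.4 and 20.9 FPKM. CD36 (19.5, 13.1 and 13.1 FPKM) and CTSS (9.49, 11.3 and 11.2 FPKM) were also on. FCGR1A and CSF1R were lowest in replicate 1, and CD36 was highest there. The markers of mature classical monocytes were low. CD14 had 0.253, 0.0839 and 0.166 FPKM, VCAN had at most 0.0157 FPKM, and FCN1 was listed at 0 in all 3. S100A8 (4.76, 1.85 and 1.86 FPKM) and S100A9 (2.57, 1.83 and 1.48 FPKM), which mature monocytes make in large amounts, were low but on.

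In the granulocyte list 7 of 20 were on, against 56.8% of all protein-coding genes. MS4A3, a marker of granulocyte-monocyte progenitors, had 101, 88.3 and 88.2 FPKM, and CTSG, the azurophil granule protease cathepsin G, 71.1, 54.6 and 54.1 FPKM. Of the other azurophil proteins, ELANE had 8.77, 5.30 and 5.99 FPKM and MPO 2.63, 1.94 and 1.99 FPKM, while AZU1 and PRTN3 stayed under 1. LTF, LCN2, MMP8 and CEACAM8, of later granules and mature neutrophils, were off. In the stem and progenitor list 4 of 15 were on, against the same 56.8%. KIT, the stem cell factor receptor, had 11.6, 13.2 and 12.8 FPKM and CD38 9.78, 17.95 and 17.1 FPKM. CD34, the classical stem cell antigen, was listed at 0, 0.0174 and 0, and PROM1 reached at most 0.00700 FPKM. GATA2 had 1.91, 5.36 and 5.32 FPKM, with replicate 1 clearly apart.

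Other blood lineages had few genes on, against 56.8% of all protein-coding genes. The erythroid list had 1 of 15 on (EPOR), the megakaryocyte list 2 of 10 (GP1BA and TUBB1), the NK cell list 1 of 9 (NKG7), the dendritic cell list 3 of 12 (TCF4, CADM1 and CLEC10A) and the mast cell and basophil list 0 of 6. The T cell list had 2 of 15 on (TCF7 and CD5), and CD3D, CD3E and CD3G, the chains of the T cell receptor complex, had at most 0.0209 FPKM. The B cell list had 3 of 18 on, IGKC and IGLL1 among them, with PAX5 at 0.108, 0.0953 and 0.146 FPKM. IGLL1, the surrogate light chain, had 8.99, 1.53 and 1.82 FPKM, so its level rested mostly on replicate 1. HBB was listed at 0, 1.14 and 1.37 FPKM, again with replicate 1 apart. Outside blood, the genes on were PECAM1 of the endothelial list, which monocytes also express, MBP of the neural list and TTN of the muscle list. The epithelial, stromal and hepatocyte lists had 0 on, with no single value above 1.19 FPKM.

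**Figure D2:**
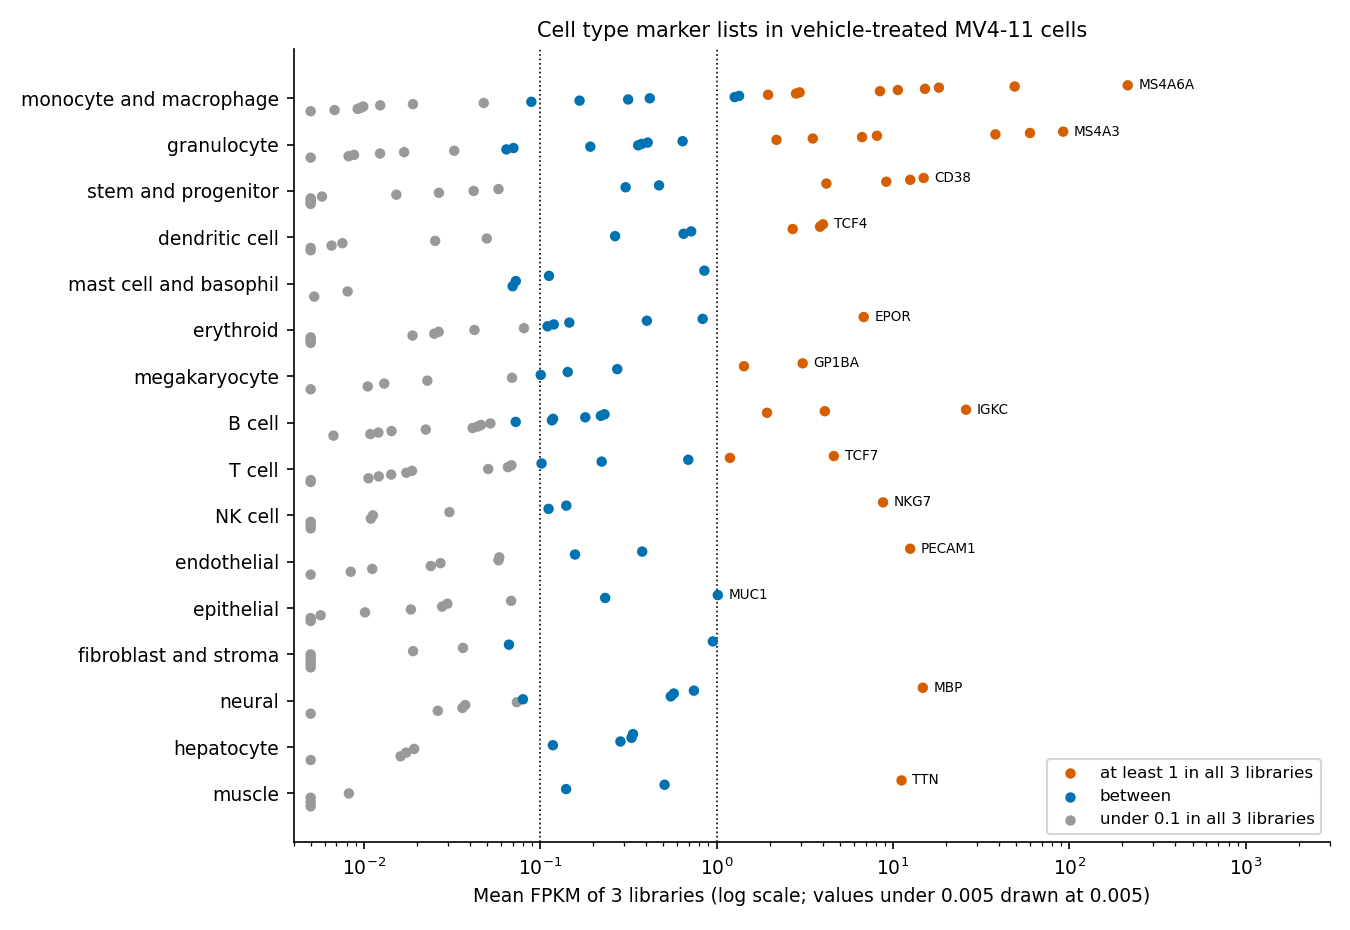
Mean FPKM (log axis) of the markers of 16 cell types, each point a gene, coloured by whether it was at least 1 FPKM in all 3 DMSO libraries, under 0.1 in all 3, or between. The monocyte, granulocyte and progenitor lists hold 20 of the 35 genes on, and MS4A6A is the highest point.

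Antigen receptor loci gave an uneven picture. In the T cell receptor gamma locus 12 of 21 measured segments were on, against 22.1% of all identifiers outside the protein-coding class. Its constant genes TRGC1 and TRGC2 had 114, 118 and 110 FPKM and 108, 141 and 130 FPKM, and the joining segment TRGJP2 had 395, 404 and 401 FPKM. TRGC1 and TRGJP2 were steady over all 3 libraries, while TRGC2 was lowest in replicate 1, with a coefficient of variation of 13.3%. Variable segments were lower, with TRGV10 at 14.04, 19.8 and 20.3 FPKM, TRGV9 at 10.2, 10.5 and 10.2 FPKM and TRGV2 at 0.816, 1.02 and 0.335 FPKM. A joining segment is 50 to 61 nt long in the annotation, so its FPKM rests on few bases. None of the 7 delta, 71 alpha or 28 beta segments in the table was on. In the immunoglobulin kappa locus 5 of 10 segments were on, led by IGKJ1 at 48.2, 35.7 and 27.9 FPKM, with IGKC at 31.3, 21.8 and 24.9 FPKM, and in the lambda locus 0 of 28. The T cell receptor gamma locus was singled out after its values were seen.

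FLT3 was the only receptor tyrosine kinase of the 36 in the table above 100 FPKM. Of the 36, 8 were on, against 56.8% of all protein-coding genes. INSR, the insulin receptor, had 16.6, 20.4 and 22.1 FPKM, so the level of FLT3 was 8.31, 8.05 and 7.64 times that of INSR in the 3 libraries. AXL, which gilteritinib also inhibits, had 0.329, 0.223 and 0.225 FPKM, and ALK at most 0.124. EGFR, ERBB4, PDGFRA and NTRK2 were off. Of the ligands, FLT3LG had 0.341, 0.446 and 0.373 FPKM and KITLG at most 0.179.

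Of the genes that follow FLT3, STAT5 and ERK signaling 22 of 25 were on, against 56.8% of all protein-coding genes. PIM1, a STAT5-induced kinase, had 18.5, 58.9 and 60.005 FPKM, PIM2 14.9, 26.2 and 25.1, and PIM3 16.3, 21.6 and 23.1. DUSP6, the ERK phosphatase, had 5.84, 12.1 and 11.0 FPKM, EGR1 10.4, 30.6 and 33.0, and CCND2 6.47, 13.3 and 12.5. SOCS2, a STAT5 feedback inhibitor, had 8.35, 9.03 and 9.10 FPKM. In each of these genes replicate 1 was lowest, least so in SOCS2. In the PI3K and AKT list 17 of 20 were on, against the same 56.8%. AKT1 had 18.5, 18.99 and 18.7 FPKM, and PIK3CD, the blood-specific catalytic subunit, was the highest member of that list.

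Besides FLT3, genes for the targets of mitoxantrone were on. The drug poisons topoisomerase II, and TOP2A had 161, 139 and 144 FPKM and TOP2B 120, 101 and 102 FPKM. The ratio of TOP2A to TOP2B was 1.35, 1.38 and 1.42 in replicates 1, 2 and 3. The efflux pumps ABCB1 and ABCG2 were off, at no more than 0.0478 and 0.0125 FPKM, and ABCC1 had 0.509, 0.772 and 0.943 FPKM. GSTP1, a glutathione transferase, had 155, 153 and 147 FPKM. Among the BCL2 family, 14 of 17 were on, against 56.8% of all protein-coding genes. BCL2, the anti-apoptotic target of venetoclax, had 105.5, 88.4 and 94.97 FPKM, MCL1 51.1, 56.3 and 58.8 FPKM and BCL2L1 2.64, 3.98 and 4.17 FPKM. BCL2 was therefore 2.07, 1.57 and 1.62 times MCL1 in level, and BCL2A1 reached at most 0.450 FPKM. Of surface antigens 16 of 22 were on, against the same 56.8%. They were led by TFRC, the transferrin receptor, with 245, 148 and 147 FPKM and CD44 with 84.5, 131 and 130 FPKM. CLEC12A, another antibody target of AML, had 2.94, 2.88 and 2.89 FPKM.

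In the cell cycle list 32 of 33 genes were on, against 56.8% of all protein-coding genes. All 32 had a mean of at least 10 FPKM. CCND1 was the member not on. CCNA2, the S and G2 cyclin, had 74.3, 67.7 and 67.9 FPKM, its germline and leukemia counterpart CCNA1 23.2, 19.1 and 19.99 FPKM, and CDK2 17.3, 22.5 and 22.6 FPKM. CDKN1A, the p53-induced inhibitor of CDKs, had 48.4, 19.3 and 19.1 FPKM, with replicate 1 apart from the other libraries. CDKN2A, which is lost in many leukemias, was on with 38.3, 39.6 and 39.9 FPKM. All 22 genes that are recurrently mutated in AML were on, against the same 56.8%. NPM1 and RAD21 led them, and DNMT3A was among the lowest.

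Immune genes were uneven. CD74, the invariant chain of MHC class II, had 87.2, 153 and 158 FPKM, while HLA-DRB1 had 6.39, 12.9 and 14.1 and HLA-DRA 0.0449, 0.0672 and 0.0982 FPKM. HLA-B had 37.5, 42.5 and 40.0 FPKM and B2M 28.4, 25.1 and 25.1, while HLA-C had 0.0443, 0.0736 and 0.145 FPKM. HLA genes are alike in sequence and lie in a part of chromosome 6 where few genes were on. From 28 to 34 Mb of that chromosome 18 of 128 protein-coding genes were on (14.1%), against 441 of 740 (59.6%) in the rest of it. Interferon response genes had 7 of 23 on, against 56.8% of all protein-coding genes. IFITM2 and BST2 led them, while IFIT1, OAS3 and IFI27 were off.

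Several low values belong to genes that every cell uses, so off in this table does not show that a gene is silent. Of 129 genes for ribosomal proteins, proteasome subunits, the chaperonin and RNA polymerase II, 123 were on. The 6 others included RPL7A, RPS18, RPS25, PSMC4 and POLR2A. RPS25 had 0.0759, 0.0567 and 0.0622 FPKM, and POLR2A, the largest subunit of RNA polymerase II, 0.312, 0.283 and 0.274 FPKM. EEF1G, a subunit of the elongation factor complex, was listed at 0 in all 3 libraries and shares 99.9% of its exonic bases with another annotated gene. Of the 197 protein-coding genes that share at least 95% of their exonic bases, 4 were on (2.03%), against 55.9% of the 12488 that share under 5%. Of 14 pseudoautosomal protein-coding genes, 0 were on, among them CD99, IL3RA and CSF2RA, which are AML surface antigens or receptors. LDHA, the lactate dehydrogenase of glycolysis, had 0.169, 0.216 and 0.105 FPKM and shares 0% of its exonic bases, while GAPDH had 829, 909 and 932 FPKM. The part that counting of shared sequence had in these values was not tested.

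The spread between the 3 libraries was small for most genes and unequal among pairs. Over the 9991 protein-coding genes that were on, the median coefficient of variation was 8.66%, and 57.5% of these genes were under 10%. The log2 FPKM of replicates 2 and 3 correlated at a Pearson r of 0.997, and 95.7% of genes were within 1.2-fold. Replicate 1 correlated at 0.981 with replicate 2 and at 0.982 with replicate 3, with 62.5% and 63.9% of genes within 1.2-fold. These correlations are across genes, which are not independent replicates, and carry no test. The steadiest abundant gene was EIF3B, an initiation factor subunit, at 94.5, 94.5 and 94.7 FPKM, and ANP32E, SNRNP200 and PSMB7 were also among the 5 steadiest.

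**Figure D3:**
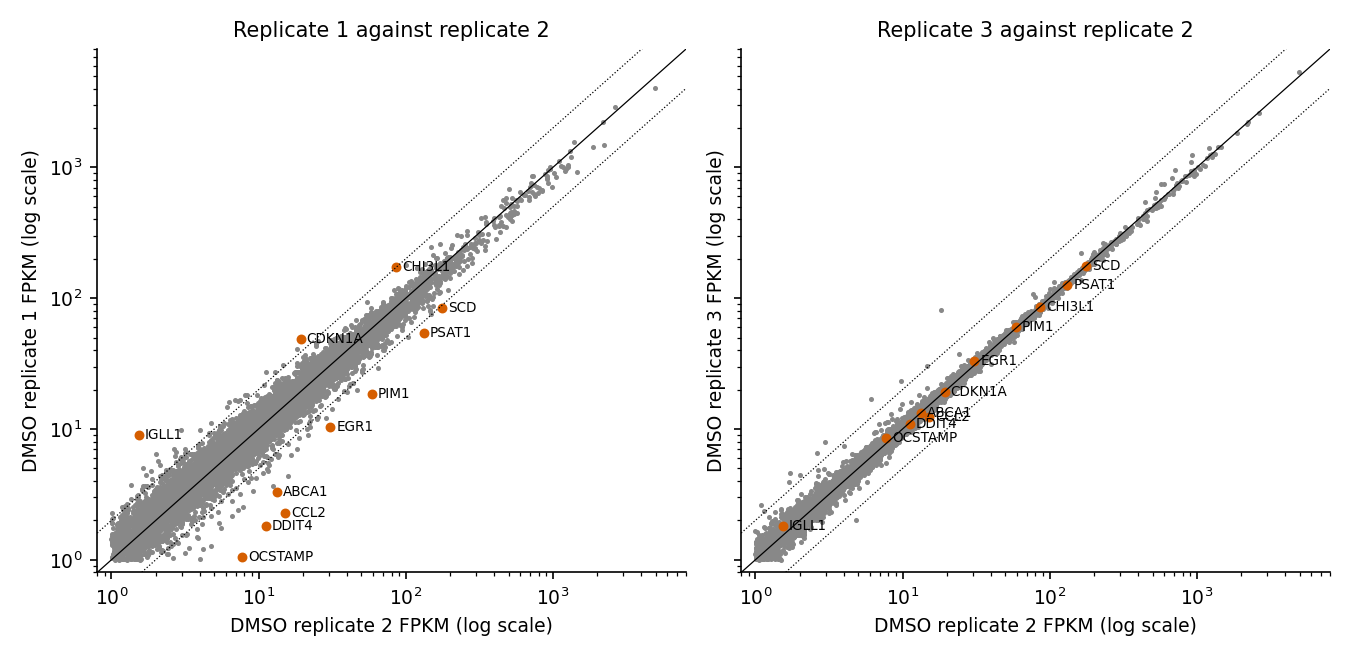
FPKM (log axes) of the protein-coding genes with at least 1 FPKM in all 3 DMSO libraries, for replicate 1 (left) and replicate 3 (right) against replicate 2, with lines at equal levels and at 2 times. The named genes leave the 2-fold band or lie at its edge on the left and lie near the diagonal on the right.

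Replicate 1 carried most of the large differences. Among 10279 protein-coding genes with a mean of at least 1 FPKM, 84 (0.817%) were under both other libraries by over 2 times in replicate 1 and 30 (0.292%) were over both by over 2 times. The same counts were 12 lower and 0 higher for replicate 2, and 4 lower and 1 higher for replicate 3. At 1.5 times, a limit chosen after the values were seen, replicate 1 was lower for 302 genes (2.94%) and higher for 320 (3.11%). With 1 library against 2, these are descriptions with no test.

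Signaling, stress and metabolic genes were among those lower in replicate 1. Of the 10 most variable genes, 8 were lowest there. CCL2, the monocyte-attracting chemokine, had 2.28, 15.05 and 12.4 FPKM, and OCSTAMP, a cell fusion protein of osteoclasts, 1.06, 7.69 and 8.4998 FPKM. DDIT4, a stress-induced inhibitor of mTORC1, had 1.82, 11.2 and 10.9 FPKM, and TRIB3, a target of the stress factor ATF4, 3.67, 12.4 and 12.2 FPKM. ABCA1, the cholesterol exporter, had 3.30, 13.28 and 13.29 FPKM, and RGS16, which shortens G protein signals, 4.4015, 15.9 and 16.2 FPKM. PIM1 and EGR1 (values above) had the same order. HIST2H2AA4 (40.7, 18.2 and 81.9 FPKM), which has a near-identical copy, and ABR (9.87, 2.97 and 7.92 FPKM) did not follow it. Outside that rule, the serine synthesis enzymes PSAT1 (53.8, 132 and 125 FPKM) and PHGDH (12.1, 28.5 and 28.9 FPKM), the amino acid carrier SLC7A5 (50.2, 103 and 104 FPKM) and the lipid enzyme SCD (84.4, 175 and 175 FPKM) were also under both other libraries by over 2 times. These 4 were chosen after their values were seen.

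By list, the lowest median ratio of replicate 1 to the mean of the other libraries was 0.542, in the dendritic cell list. It rested on 3 genes with a mean of at least 1 FPKM, CLEC10A and CADM1 lower and TCF4 higher by over 1.5 times. Next came immediate early genes, cytokines and chemokines, MHC class II and FLT3 signaling output. Over all 10279 coding genes the median ratio was 1.01, with 47.5% above both other libraries in replicate 1 and 42.4% below both. Of 23 FLT3 output genes with a mean of at least 1 FPKM, 22 were below both other libraries, 13 of them by over 1.5 times, against 2.94% of all genes, with a median ratio of 0.624. Of 15 immediate early genes, 15 were below both and 10 by over 1.5 times, with a median ratio of 0.561. FOS had 20.8, 32.2 and 33.3 FPKM and EGR3 0.203, 3.10 and 3.06 FPKM. EGR1 is counted in both lists. Of 7 cytokine and chemokine genes, 5 were below both libraries, all by over 1.5 times (median ratio 0.573), among them VEGFA at 2.82, 6.63 and 7.01 FPKM. All 4 MHC class II genes were below both, 3 of them by over 1.5 times (median ratio 0.574), CD74 included. Of 20 glycolysis genes 5 were lower by over 1.5 times, among them the glucose carriers SLC2A1 (28.3, 50.4 and 48.1 FPKM) and SLC2A3 (1.2006, 4.16 and 4.06 FPKM). In the p53 list 20 of 26 genes were above both libraries, against the 47.5% of all coding genes, with a median ratio of 1.17, and CDKN1A and MDM2 (32.3, 20.6 and 21.1 FPKM) over 1.5 times. PI3K and AKT genes (median ratio 1.02) and proteasome genes (1.06) lay near 1. Of 32 cell cycle genes 21 were below both libraries, against 42.4% of all coding genes, with a median ratio of 0.897. Over all protein-coding genes on, the median ratio was 0.966 in the fifth with the shortest exons and 1.06 in the fifth with the longest. By mean level, it was 1.06 for those at 1 to 5 FPKM and 0.912 for those at 100 FPKM and over. The small structured RNAs were higher in replicate 1 for 6 of 10 genes by over 1.5 times, with a median ratio of 2.20. This list and the proteasome list were written after values were seen, so their ratios describe these genes only. The ratio over all genes outside the coding class was not computed. The part of gene length, of expression level or of the small structured RNAs in the list differences was not tested.

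**Figure D4:**
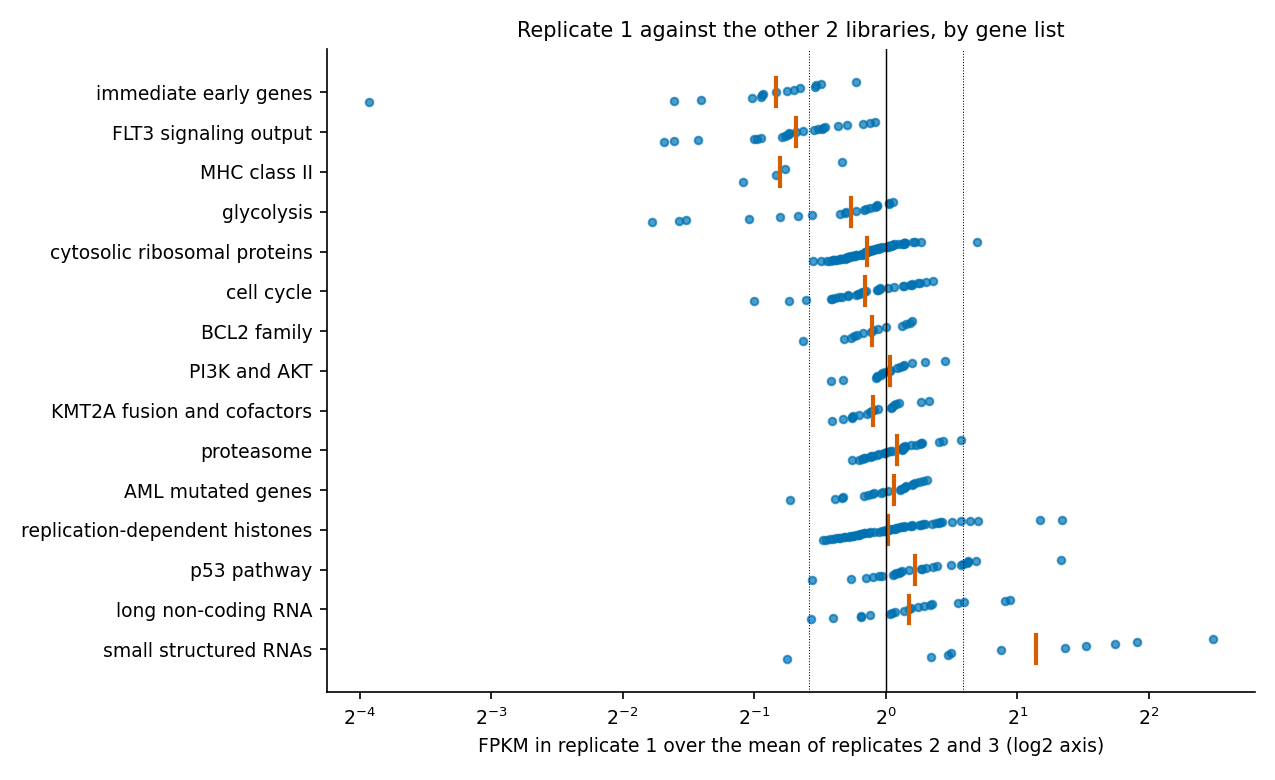
Ratio of FPKM in replicate 1 to the mean of replicates 2 and 3 (log2 axis) for genes with a mean of at least 1 FPKM, by gene list, with each point a gene and the bar the median. Immediate early and FLT3 output genes lie left of 1 (medians 0.561 and 0.624), and small structured RNAs lie right of it (median 2.20). The small structured RNA, histone and proteasome lists were written after values were seen.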

How the data were processed

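The authors deposited FPKM per gene for 12 libraries; the 3 DMSO columns were used unchanged. Per the labels, mRNA from miRNeasy total RNA was reverse-transcribed and amplified by Geo-seq before TruePrep library construction, while the study's methods name TRIzol. The submitters' processing notes name Bowtie 0.12.9, Cufflinks 2.1.1, HTSeq and the mouse build mm10, although the identifiers are human; the human build and annotation are not given in the sources used here. GENCODE 29 (GRCh38) held 40169 of 43876 identifiers and gave classes, positions and exon lengths; 17 others took the protein-coding class of RefSeq.

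Depth was found as the number of fragments that makes low FPKM times exon length whole. Within 0.05, 86.8% to 87.1% of low values outside protein-coding genes came out whole, against 75.0% to 75.2% over all genes. Low values of protein-coding genes thus came out whole less often. The shares of fragments and the grouping by exon length rest on these same exon lengths. The step was tested on simulated data.

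The 3 libraries form 1 group, so no test was made. The members and lists were chosen with earlier results of these data known. Named are the 5 markers, the 20 most abundant coding and 15 other genes, the 10 coding genes with the largest SD of log2(FPKM + 1) at a mean of at least 5 and the 5 with the smallest at a mean of at least 50, genes the paper names, and the highest and defining members of 46 lists. A further 7 lists (proteasome, chaperonin, RNA polymerase II, T cell receptor gamma locus, small structured RNAs, histones, mitochondrially encoded proteins) were written after values were seen. Alternatives were other FPKM limits, TPM, shares of fragments, median-ratio scaling and each library left out. Python 3.11.15 with pandas 2.3.3 was used. Some named genes are not reported here.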

Additional observations from a re-analysis of the deposited data

How the results depend on the processing

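No paired analysis was possible because no groups were compared. Raising the limit for a gene to be on to 5 FPKM lowered the count of all genes from 15813 to 8627 and that of the blood lists from 32 to 17. For the lists of other tissues the count rose from 3 to 7 at 0.5 FPKM and to 9 at 1 TPM. As shares of fragments rather than of FPKM, protein-coding genes held 95.7% in place of 78.6%, and the 10 most abundant genes 3.64% in place of 12.8%. The 10 most abundant protein-coding genes, which are another set, held 6.84% of the summed FPKM of protein-coding genes. The median coefficient of variation of coding genes rose from 8.66% to 13.8% with no filter on low values, and leaving out each library in turn gave 2.72% (without replicate 1) to 9.73%. The count of genes over 2 times higher in replicate 1 fell from 30 to 9 at a mean of at least 5 FPKM and to 7 on FPKM + 1, and rose to 320 at 1.5 times, which was chosen after seeing the data. The count of those lower fell from 84 to 39 under either of the first 2 alternatives and rose to 302 at 1.5 times. The count of protein-coding genes on stayed within 1.5 times 9991 under every alternative tried. Of 215 named genes, 0 moved by over 1 SD under median-ratio scaling. On the TPM scale, which multiplies every value of a library by 2.64 to 2.75, 209 did. Without any 1 library 0 moved, but leaving out 1 of 3 libraries cannot shift a mean by over 1 SD. That alternative therefore says nothing on single genes. Without replicate 1 the mean of CDKN1A went from 28.9 to 19.2 FPKM, and that of CCL2 from 9.92 to 13.7 FPKM. The values of genes that share exons or are short are less certain. The part of exon sharing and of short length in these values was not tested.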

Other observations

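Processed pseudogenes are reverse-transcribed copies of a message in the genome, and all 5879 of them together held 3.30% ± 0.113 (SD, n = 3) of the summed FPKM. Copies of translation genes were among the most abundant genes outside the coding class. RPS28P7 had 1195, 1567 and 1521 FPKM in replicates 1, 2 and 3, while its parent RPS28 had 126, 170 and 156 FPKM. In FPKM the copy was 9.49, 9.25 and 9.72 times its parent, a steady ratio in all 3 libraries. FPKM is a level per length and the copy is 210 nt long in the annotation, so this is not a ratio of fragments. RPL7AP6 had 105, 157 and 145 FPKM, while RPL7A, a ribosomal protein gene that every cell uses, had 1.62, 1.12 and 0.886 FPKM. RPL7P1 had 403, 472 and 469 FPKM, RPS2P5 242, 297 and 289 FPKM, and EEF1A1P5 341, 218 and 225 FPKM. A parent and its copy can share reads, so the division of these values between them is uncertain.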
